A study of Mus musculus with 24 samples.

Results

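The 65 genes described here belong to the cytochrome P450 enzymes, and Cyp2d13 and Cyp4f41-ps among them are annotated as transcribed pseudogenes. They are all the measured genes whose mouse symbol starts with Cyp, a number, a letter and a number, other than Cyp51, Cyp4a10 and Cyp24a1. They make up 65 of the 15267 genes compared. Family Cyp1 has 3 of them, Cyp2 has 30, Cyp3 has 5, Cyp4 has 12, and 15 belong to other families. Each was measured by 1 probe set. The samples came from the intestine of Amacr-/- mice, called knockout here, and wild-type mice. Amacr encodes alpha-methylacyl-CoA racemase, a peroxisomal enzyme of bile acid side-chain processing and branched-chain fatty acid breakdown. All mice were male C57BL/6 aged 3 to 3.5 months, per the labels, and no treatment was given beyond a rinse of the excised intestine with saline of 0.85%. Each intestine was cut into 4 equal segments, numbered 1 to 4 as in the labels, and 3 biological replicates of each genotype and segment gave 8 groups and 24 arrays. The labels do not describe how the knockout allele was made.

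Cytochromes P450 are heme enzymes that insert an oxygen atom into their substrates, using electrons passed on by P450 reductase, cytochrome b5 or, in mitochondria, ferredoxin. Families Cyp1 to Cyp3 mainly oxidise drugs, dietary and other foreign compounds, family Cyp4 hydroxylates fatty acids and eicosanoids, and most other families make or degrade sterols, bile acids, steroid hormones, vitamin D or retinoic acid. In the small intestine they form a first barrier to ingested compounds. Several are induced through ligand-activated receptors: Cyp1a1 through AHR, Cyp2b10 through CAR (gene Nr1i3) and Cyp3a11 through PXR (gene Nr1i2).

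Levels are given as the deposited log2 values, so that a difference of 1 is a 2-fold change. Array medians lay between 6.06 and 6.16. Amacr itself was at 6.96 to 8.75 in wild-type and 4.81 to 5.6 in knockout arrays, with no overlap. The labels name the scraped layer endothelial. The 8 markers of intestinal epithelium averaged 11.4 to 12.24 per array, while the 8 markers of vessel endothelium averaged 4.78 to 5.59. Among the vessel markers, Cdh5 was at 4.28 to 4.76 and Tie1 at 3.92 to 5. Kdr, the highest of them, was at 6.27 to 7.29, above the array medians. The 9 liver markers averaged 4.86 to 5.22. Markers of exocrine pancreas, fat or smooth muscle lay over 1 log2 above their mean of all arrays in 6 arrays: wild-type segment 1 replicate 1 and segment 2 replicate 3, and knockout segment 1 replicate 3, segment 2 replicates 1 and 3, and segment 3 replicate 3. All arrays were kept. Precision is limited by the 3 arrays in each group.

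Of the 65 P450 genes, 27 had a mean under 5 in all 8 groups, and 9 had a mean of 10 or more in all 8. These 9 were Cyp2c55, Cyp2d26, Cyp3a11, Cyp3a13, Cyp3a25, Cyp4b1, Cyp4f14, Cyp4f16 and Cyp4v3. The group means spanned under 0.5 in 35 genes and over 1 in 20. Probe sets differ in their response, so levels of different genes are not set against each other.

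Some P450 genes fell along the intestine in both genotypes, led by Cyp2b10, Cyp1a1 and Cyp2c29, and most did not pass the test. Between segments 1 and 4 of the wild-type, 14 of the 65 changed, 0 upward and 14 downward (limma, Benjamini-Hochberg adjusted p under 0.05 over all genes). Over all genes 23.6% changed there, 10% upward and 13.6% downward. In the knockout 24 changed, 2 upward and 22 downward, against 30.3% of all genes, 15.4% upward and 14.9% downward. With no filter on level, the share of P450 genes called, 21.5% in the wild-type and 36.9% in the knockout, was near that of all genes. All 14 calls in the wild-type and 22 of the 24 in the knockout were downward. Counts with filters on level are given with the processing. The median difference of the 65 was -0.08 in the wild-type, against 0.03 for all genes, and -0.16 in the knockout, against -0.01.

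In family Cyp1, Cyp1a1 fell and the other 2 members did not pass the test. Cyp1a1 oxidises polycyclic aromatic hydrocarbons. Its wild-type arrays read 9.14, 8.62 and 9.21 in segment 1, 6.58, 7.99 and 5.55 in segment 2, 4.97, 5.1 and 4.89 in segment 3, and 4.94, 4.8 and 5.49 in segment 4. Its knockout arrays read 9.14, 9.3 and 7.19, then 9.65, 5.71 and 5.11, then 4.81, 4.88 and 5.71, and last 4.87, 4.92 and 5.08. Segment 1 lay above segments 3 and 4 in both genotypes without overlap, whereas segment 2 held both high and low arrays. The difference of segment 4 from segment 1 was -3.91 (SE 0.81, adjusted p = 0.0012) in the wild-type and -3.59 (SE 0.81, adjusted p = 0.00193) in the knockout. Cyp1a2 and Cyp1b1 stayed within group means spanning 0.32 and 0.12.

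In family Cyp2, 8 of 30 fell in the wild-type, and 12 fell and 1 rose in the knockout. Cyp2b10, the classical target of the receptor CAR, read 10.8, 11.6 and 12.01 in segment 1, 11.27, 11.86 and 11.09 in segment 2, 10.32, 10.81 and 10.1 in segment 3, and 6.37, 6.93 and 8.89 in segment 4 of the wild-type. In the knockout it read 12.07, 11.95 and 11.82, then 11.61, 11.22 and 11.55, then 10.51, 9.69 and 9.67, and last 6.86, 6.1 and 6.92. Its level was high through segments 1 and 2, and the step from segment 3 to segment 4 was -3.01 in the wild-type and -3.33 in the knockout. The difference between the ends was -4.07 (SE 0.45, adjusted p = 1.29e-06) and -5.32 (SE 0.45, adjusted p = 3.08e-08).

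Cyp2c29 belongs to a subfamily that oxidises drugs and arachidonic acid, and its decline started earlier. Its wild-type arrays read 6.73, 9.49 and 11.09 in segment 1, 6.58, 7.91 and 7.44 in segment 2, 6.25, 6.83 and 6.14 in segment 3, and 5.79, 5.93 and 6.03 in segment 4. Its knockout arrays read 11.95, 10.67 and 11.09, then 8.51, 8.34 and 9.21, then 7.16, 6.17 and 5.99, and last 5.72, 5.21 and 6. The wild-type arrays of segment 1 were spread over more than 4 log2, and every array of segment 1 lay above every array of segment 4 of its genotype. The fall was -3.19 (SE 0.68, adjusted p = 0.00157) in the wild-type and -5.59 (SE 0.68, adjusted p = 2.86e-06) in the knockout.

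The other Cyp2 members that fell in both genotypes were Cyp2c23, Cyp2d22, Cyp2d26, Cyp2j9 and Cyp2r1. Cyp2d22 fell by 1.72 in the wild-type and 1.96 in the knockout (SE 0.29 in both, adjusted p = 0.000162 and 2.92e-05). Cyp2d26, of the same drug-oxidising subfamily, fell by 1.89 and 1.76 (SE 0.41, adjusted p = 0.00189 and 0.00261). Cyp2c23 and Cyp2j9, both oxidising arachidonic acid, fell by 1.87 and 1.88 in the wild-type and by 1.83 and 1.73 in the knockout. Cyp2r1, which hydroxylates vitamin D, fell by 0.70 and 0.62. Its means lay between 3.46 and 4.24, near the bottom of the scale, where RMA compresses differences. Cyp2s1 fell in the wild-type (-0.45, SE 0.15, adjusted p = 0.0328) and measured -0.25 in the knockout (adjusted p = 0.243).

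Of the 5 Cyp3a genes, 3 fell in both genotypes: Cyp3a11, Cyp3a13 and Cyp3a25. Cyp3a44, with group means of 6.06 to 6.54, differed by 0.19 in the wild-type and -0.09 in the knockout, and Cyp3a16, with group means of 3.17 to 3.35, by -0.03 and -0.003, and neither passed the test. Cyp3a11, the main drug-oxidising P450 of mouse liver and a target of the receptor PXR, read 13.57, 13.83 and 14.04 in segment 1, 13.53, 13.96 and 13.69 in segment 2, 13.24, 13.79 and 13.41 in segment 3, and 11.62, 12.17 and 13.47 in segment 4 of the wild-type. In the knockout it read 14.09, 13.99 and 14.05, then 13.85, 13.8 and 13.82, then 13.82, 13.48 and 13.24, and last 12.71, 11.95 and 12.2. Its level was nearly flat to segment 3 and lower in segment 4, where 1 wild-type array, replicate 3, stayed near the level of segment 3. Among the P450 genes that fell in both genotypes, that array was the highest of its group in all but Cyp2r1 and Cyp4f15. For Cyp2d26 it read 12.21 against 9.92 and 10.43. The difference of Cyp3a11 between the ends was -1.39 (SE 0.31, adjusted p = 0.002) and -1.76 (SE 0.31, adjusted p = 0.000175). Cyp3a25 fell by 1.13 and 1.25, and Cyp3a13 by 0.64 and 1.03. Values near the top of an array's range can be compressed by saturation, which was not tested.

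**Figure D1:**
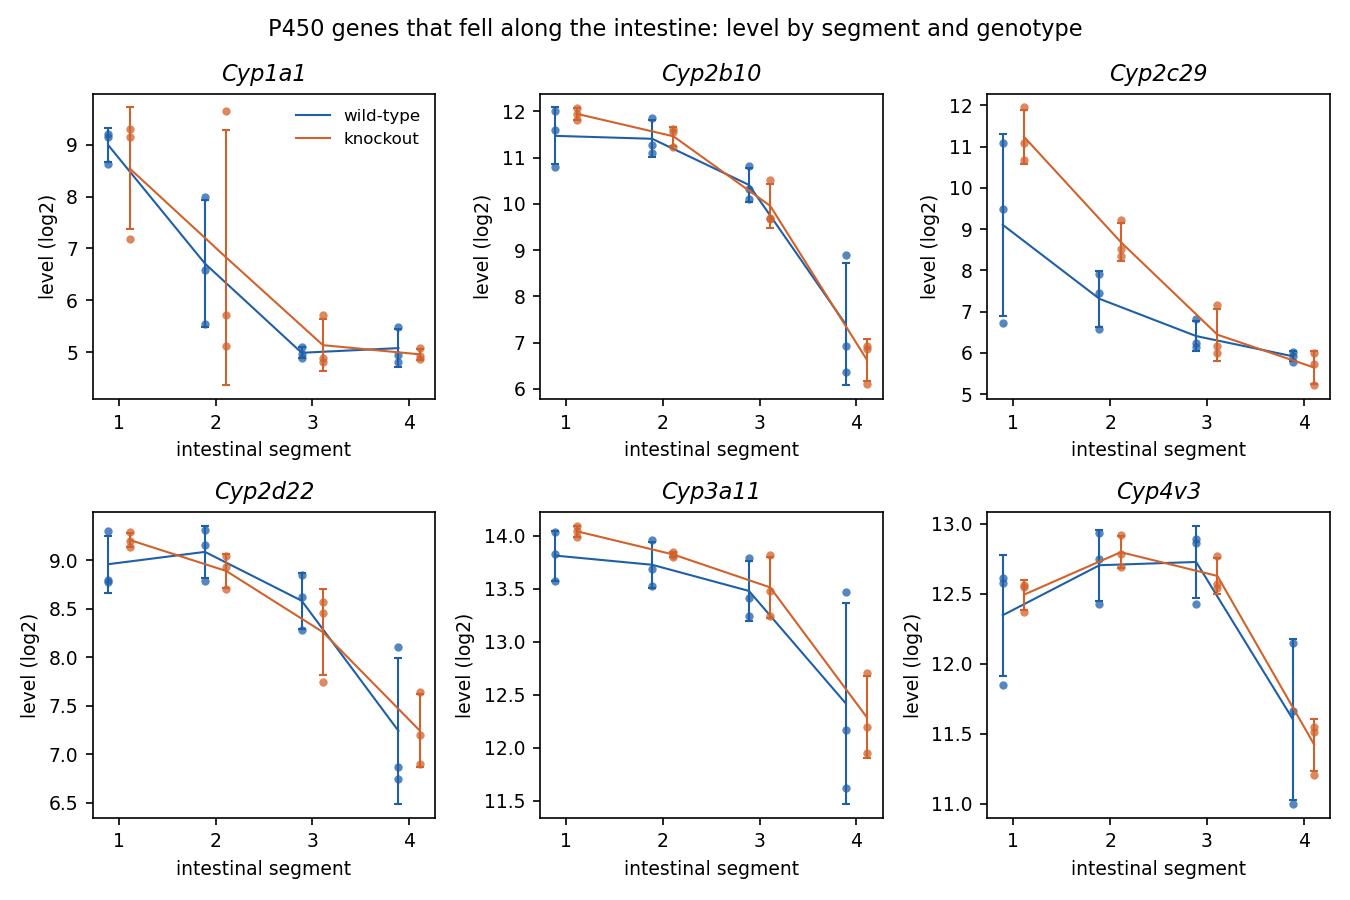
Level (log2) of 6 P450 genes against the intestinal segment, wild-type in blue and knockout in orange. Points are arrays, lines join group means and bars are the SD (n = 3). The means of Cyp1a1 and Cyp2c29 drop from segment 1 to segment 3, while those of Cyp2b10, Cyp2d22, Cyp3a11 and Cyp4v3 drop most between segments 3 and 4.

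In family Cyp4, 2 of 12 fell in the wild-type and 5 in the knockout, and 0 rose. Cyp4v3, a fatty acid hydroxylase, was at 12.35 ± 0.43 in segment 1, 12.7 ± 0.25 in segment 2, 12.73 ± 0.26 in segment 3 and 11.6 ± 0.58 in segment 4 of the wild-type (mean ± SD, n = 3). Its largest step was the last, -1.12 in the wild-type and -1.20 in the knockout, where the step from segment 2 to 3 was -0.17. Cyp4b1 had the same shape, with the highest wild-type mean, 11.24, in segment 3 and 10.11 in segment 4 (adjusted p over the 4 segments = 0.00709). Cyp4f15 fell early instead, from 5.61 in segment 1 to 4.85 in segment 2 of the wild-type and from 6.09 to 5.01 in the knockout. Cyp4f14, which hydroxylates leukotriene B4 and vitamin E, changed along the wild-type segments (adjusted p = 0.0329) with its highest mean, 12.98, in segment 3. In the knockout it was at 12.69, 12.88, 13.04 and 12.74 (adjusted p = 0.0615).

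Tested over all 4 segments with a moderated F test, 16 P450 genes differed in the wild-type, against 22.7% of all genes, and 21 in the knockout, against 28.3%. Of these, 14 were shared and 42 of the 65 were called in neither genotype. Segment 4 had the lowest mean in 11 of the 16 and 17 of the 21, and segment 1 the highest in 9 and 13. The largest step between neighbouring segments was that from 3 to 4 in 9 of the 16 and 11 of the 21, and that from 1 to 2 in 5 and 7. Between the ends, the 13 genes called in both genotypes made up 92.9% of the wild-type calls and 54.2% of the knockout calls. The genotype by segment interaction called 0 P450 genes and 0 of all genes (0.0% called), with 4 P450 genes and 907 of all genes at an unadjusted p under 0.05. The larger number of calls in the knockout is therefore not shown to be a difference between the genotypes.

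**Figure D2:**
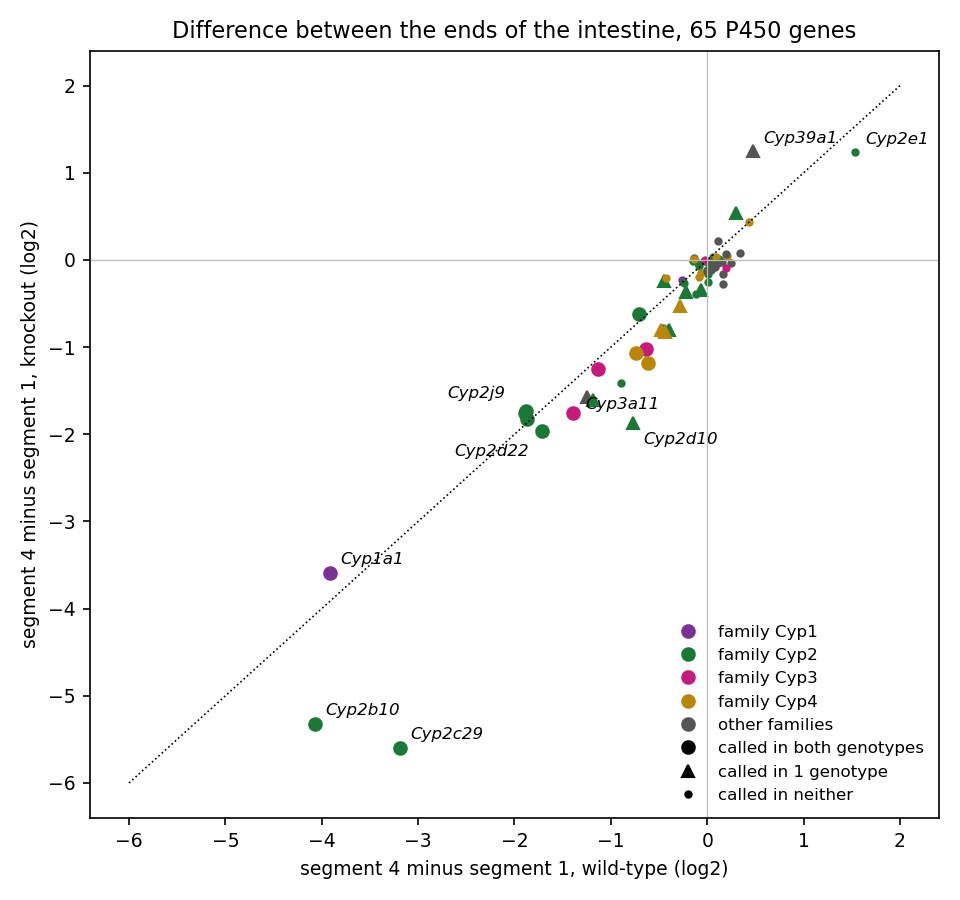
Difference of segment 4 from segment 1 (log2) in the wild-type (horizontal) and the knockout (vertical) for each of the 65 genes, coloured by family. Circles mark genes called in both genotypes, triangles those called in 1, and the dotted line marks equal differences. The 13 circles lie at the lower left, led by Cyp2c29 (-3.19 and -5.59) and Cyp2b10 (-4.07 and -5.32).

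The calls of 9 of these genes held in both genotypes with each array left out in turn: Cyp1a1, Cyp2b10, Cyp2c23, Cyp2c29, Cyp2d22, Cyp2d26, Cyp2r1, Cyp3a11 and Cyp3a13. In the wild-type, Cyp3a25 lost its call without segment 4 replicate 1 (adjusted p = 0.0504) and Cyp4v3 without segment 1 replicate 2 or 3 or segment 4 replicate 1 (0.0979, 0.116 and 0.169, with a difference of -0.44 without the last). Cyp4f15 lost it without segment 1 replicate 3 or segment 4 replicate 2 (0.134 and 0.0799), and Cyp2s1 without segment 1 replicate 2 or 3 or any array of segment 4 (0.0535 to 0.145). In the knockout, Cyp27a1 lost its call without segment 1 replicate 3 or segment 4 replicate 2 (0.0589 and 0.07), Cyp2j9 without segment 1 replicate 1 (0.0567), and Cyp4b1 without segment 4 replicate 2 (0.0601). Cyp2j6 lost it without segment 1 replicate 1 or segment 4 replicate 2 or 3 (0.108, 0.0815 and 0.0588), and Cyp2u1 without segment 1 replicate 2 or segment 4 replicate 1 (0.0737 and 0.0838). Among genes with low levels, Cyp2b9 lost it without segment 1 or segment 4 replicate 1 or 2 (0.0755 to 0.162), Cyp2c37 without segment 1 replicate 1 or segment 4 replicate 3 (0.0822 and 0.0544), and Cyp4a31 without segment 1 replicate 2 or segment 4 replicate 3 (0.158 and 0.0651, with a difference of -0.31 without the first). Leaving out the 6 arrays with raised pancreas, fat or smooth muscle markers took out knockout segment 2 replicates 1 and 3, among others. Cyp2u1 and Cyp4b1 were then no longer called in the knockout, at differences of 0.49 and -0.79. A fit on the arrays of 1 genotype alone ended the calls of Cyp4v3 in the wild-type (0.0833) and Cyp4a31 in the knockout (0.0628), and renewed quantile normalization those of Cyp2s1 in the wild-type (0.0952) and Cyp2b9 in the knockout (0.0607).

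Some markers of cell types also differed between segments 1 and 4, where 23.6% of all genes were called in the wild-type and 30.3% in the knockout. Of the 8 markers of intestinal epithelium, 5 rose and 0 fell in the wild-type and 7 rose and 0 fell in the knockout. Per array they averaged 11.56 to 11.63 in segment 1 and 11.96 to 12.11 in segment 4 of the wild-type, and 11.4 to 11.52 and 12.17 to 12.24 in the knockout. All 9 markers of exocrine pancreas were lower in segment 4, with median differences of -1.32 in the wild-type and -0.79 in the knockout, and Cela1 passed the test in both and Ctrl in the wild-type. Their mean per array was 5.86 to 9 in segment 1 and 5.68 to 5.77 in segment 4 of the wild-type, and 5.93 to 7.45 and 5.66 to 5.74 in the knockout. Of the 6 leukocyte markers, the T cell genes Cd3e and Cd3g fell in both genotypes and 0 rose, and the list averaged 8.36 to 8.78 and 8.36 to 8.97 in segments 1 and 4 of the wild-type and 8.2 to 8.35 and 7.87 to 8.82 in the knockout. Of the 8 markers of vessel endothelium and the 8 of smooth muscle, 0 passed the test. Of the 5 fat markers, 4 were higher and 1 lower in segment 4 of the wild-type, with a median difference of 0.65. In the knockout 3 were higher and 2 lower (0.33). Of these only Cidec passed the test, and it fell in both genotypes. Of the 9 liver markers, 6 were higher and 3 lower in the wild-type (0.09). In the knockout 3 were higher and 6 lower (-0.05). Among them only Tat passed the test, and it rose in both genotypes. Fewer cells of a type and less RNA per cell cannot be told apart in these samples, and the part of cell composition in the falls was not tested.

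The promoters of 5 genes are shown because 2 of them, Cyp1a1 and Cyp2c29, fell mostly before segment 3 and another 2, Cyp2b10 and Cyp3a11, mostly after it, and the fifth, Cyp2e1, did not pass the test along the segments. RefSeq promoters of GRCm38.p6 were matched for 48 of the 65 genes, with 55 start sites in all. The 250 bases before the start are given 5′ to 3′ on the gene's strand. The windows are chr9:57697363-57697612 (plus strand), chr7:25897408-25897657 (plus strand), chr19:39286835-39287084 (plus strand), chr5:145879855-145880104 (minus strand) and chr7:140763569-140763818 (plus strand). Each ends at the base before a RefSeq start site. For Cyp1a1 and Cyp2c29 this site lies inside the annotated gene, which begins at 57687928 and 39287044. Capitals mark matches, on either strand, to 7 motifs chosen after the levels were known: the TATA box TATAAA, the nuclear receptor half-site AGGTCA, the AHR core GCGTG, the HNF4 site CAAAGTCCA, the HNF1 site, the E-box CACGTG and the CCAAT box CCAAT.
Cyp1a1 promoter: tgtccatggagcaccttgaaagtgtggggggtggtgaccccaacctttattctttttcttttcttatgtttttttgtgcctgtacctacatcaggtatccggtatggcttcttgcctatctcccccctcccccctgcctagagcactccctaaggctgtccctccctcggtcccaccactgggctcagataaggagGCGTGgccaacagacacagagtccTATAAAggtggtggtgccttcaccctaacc
Cyp2b10 promoter: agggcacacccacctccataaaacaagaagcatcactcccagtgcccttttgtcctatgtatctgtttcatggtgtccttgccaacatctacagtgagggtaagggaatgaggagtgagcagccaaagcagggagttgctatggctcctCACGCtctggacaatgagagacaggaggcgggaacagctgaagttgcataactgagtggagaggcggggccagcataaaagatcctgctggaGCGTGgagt
Cyp2c29 promoter: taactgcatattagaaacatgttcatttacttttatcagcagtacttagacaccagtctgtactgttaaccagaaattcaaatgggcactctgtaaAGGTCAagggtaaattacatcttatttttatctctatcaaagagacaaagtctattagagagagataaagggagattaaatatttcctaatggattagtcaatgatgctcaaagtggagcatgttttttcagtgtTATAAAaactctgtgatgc
Cyp3a11 promoter: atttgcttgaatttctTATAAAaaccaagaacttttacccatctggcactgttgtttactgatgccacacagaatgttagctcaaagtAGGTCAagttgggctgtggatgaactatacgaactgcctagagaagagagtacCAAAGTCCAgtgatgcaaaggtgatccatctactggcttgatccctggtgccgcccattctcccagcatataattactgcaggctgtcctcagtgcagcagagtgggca
Cyp2e1 promoter: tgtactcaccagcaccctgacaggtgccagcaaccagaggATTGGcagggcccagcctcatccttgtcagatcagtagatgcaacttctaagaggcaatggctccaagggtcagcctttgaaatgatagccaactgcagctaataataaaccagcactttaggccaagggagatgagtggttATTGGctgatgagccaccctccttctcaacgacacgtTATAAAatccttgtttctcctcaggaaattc

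Positions give the first base of a match, counted back from the start. In the window of Cyp1a1 the AHR core lay at -54 and the TATA box at -30. Cyp2b10 held the AHR core at -101, on the opposite strand, and at -9, and neither the half-site nor the exact TATA letters. Cyp2c29 held a half-site at -154 and a TATA box at -19. Cyp3a11 held the TATA letters at -234, the half-site at -162 and the HNF4 site at -109. Cyp2e1 held CCAAT at -210 and -68, both on the opposite strand, and a TATA box at -31. Over the 55 promoters of P450 genes, 30.9% held TATAAA against 12.4% of all 32851 promoters, and 23.6% held AGGTCA against 14.0%. The HNF4 site was found in 4 of the 55 (Cyp2c70, Cyp3a11, Cyp3a16 and Cyp8b1), 7.27% against 0.384%. The AHR core was found in 21.8% against 28.2%, CCAAT in 41.8% against 33.8%, the E-box in 3.64% against 6.02%, and the HNF1 site in 0 of the 55 against 0.00913%. Matches of different motifs overlapped in 0 of the 55, and promoters of neighbouring family members share sequence. A match describes letters in this window and not a binding site.

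Some regulators and partners of P450 enzymes also differed between segments 1 and 4. Over all genes 10% rose and 13.6% fell there in the wild-type, and 15.4% rose and 14.9% fell in the knockout. Of 18 measured receptors and regulators, 4 rose and 6 fell in the wild-type, and 4 rose and 5 fell in the knockout. Nr1i3, encoding CAR, fell by 3.45 in the wild-type and 3.85 in the knockout (SE 0.26, adjusted p = 1.23e-08 and 1.85e-09). Nr1i2, encoding PXR, fell by 1.23 and 0.97, and Ahr by 1.10 and 1.27. The bile acid receptor Nr1h4 rose by 2.03 and 2.77 (SE 0.23), together with Nr5a2 (1.19 and 1.65), Hnf4a (0.74 and 0.82) and the glucocorticoid receptor Nr3c1 (0.47 and 0.71). The small heterodimer partner Nr0b2 fell by 1.82 and 2.35.

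Among 10 measured targets of PXR and CAR outside the P450 genes, 0 rose and 6 fell in each genotype. The share of all genes that fell was 13.6% in the wild-type and 14.9% in the knockout. The glutathione transferase Gstm1 fell by 3.82 and 4.09, and Abcc2, an efflux pump for conjugates, differed by -1.98 and -1.85. Of 5 targets of AHR, 0 rose and 2 fell in each genotype, with differences of -1.48 and -1.38 for Nqo1 and -0.74 and -0.61 for Nfe2l2.

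Of 6 electron donors and partners, 5 fell in each genotype, where 13.6% of all genes fell in the wild-type and 14.9% in the knockout. Cyb5r3, the reductase of cytochrome b5, fell by 2.24 and 2.52, and Pgrmc2, a heme-binding membrane protein, differed by -2.14 and -2.02. Cytochrome b5 itself, Cyb5a, fell by 0.39 and 0.51. Of 11 genes of heme synthesis and breakdown, 7 fell and 0 rose in the wild-type, and 7 fell and 2 rose in the knockout. Alas1, the first enzyme of heme synthesis, fell by 0.49 and 0.50, and Cpox by 1.13 and 1.10. In every one of these 5 lists, 0 genes were called between the genotypes in any segment.

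Of the genes of sterol and bile acid metabolism, 1 fell and 1 rose along the knockout segments. Cyp27a1 hydroxylates the sterol side chain, upstream of the step that Amacr catalyses. Its wild-type arrays read 8.85, 10.5 and 10.34 in segment 1, 9.38, 10.21 and 10.75 in segment 2, 9.18, 10.09 and 10.34 in segment 3, and 8, 8.65 and 9.3 in segment 4. Its knockout arrays read 10.27, 10.02 and 10.89, then 10.82, 10.26 and 10.78, then 10.31, 9.43 and 9.85, and last 9.29, 8.22 and 8.97. The genotypes overlapped in every segment. Segment 4 differed from segment 1 by -1.25 in the wild-type (SE 0.45, adjusted p = 0.0502) and fell by 1.57 in the knockout (SE 0.45, adjusted p = 0.0111). Between the genotypes it differed by 0.50 in segment 1 and 0.51 in segment 2 (SE 0.45, adjusted p = 0.709 and 0.903).

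Cyp39a1, an oxysterol hydroxylase of bile acid synthesis, ran the other way. Its wild-type arrays read 5.76, 5.72 and 5.26 in segment 1, 5.27, 5.3 and 5.48 in segment 2, 5.41, 5.2 and 6.34 in segment 3, and 6.05, 6.27 and 5.83 in segment 4. Its knockout arrays read 5.08, 5.15 and 4.98, then 5.05, 5.58 and 5.13, then 6.17, 5.7 and 4.98, and last 6.27, 6.6 and 6.08. It was highest in segment 4 of both genotypes, and in segment 1 all knockout arrays lay below all wild-type arrays. It rose by 1.25 in the knockout (SE 0.27, adjusted p = 0.00135) and measured 0.47 in the wild-type (adjusted p = 0.239). Its genotype difference in segment 1 was -0.51 (SE 0.27, adjusted p = 0.484). Cyp2u1, a fatty acid hydroxylase, was the other gene that rose in the knockout (0.54, SE 0.15, adjusted p = 0.0113).

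The remaining bile acid and oxysterol genes were low and flat. Cyp7a1, the rate-limiting enzyme of bile acid synthesis in liver, Cyp7b1 and Cyp8b1 had group means spanning 0.14, 0.14 and 0.34, and Cyp46a1, which makes an oxysterol in brain, 0.41. Of these, 0 passed a test of this fit. Cyp27b1, which activates vitamin D, and Cyp26b1, which degrades retinoic acid, spanned 0.28 and 0.15.

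**Figure D3:**
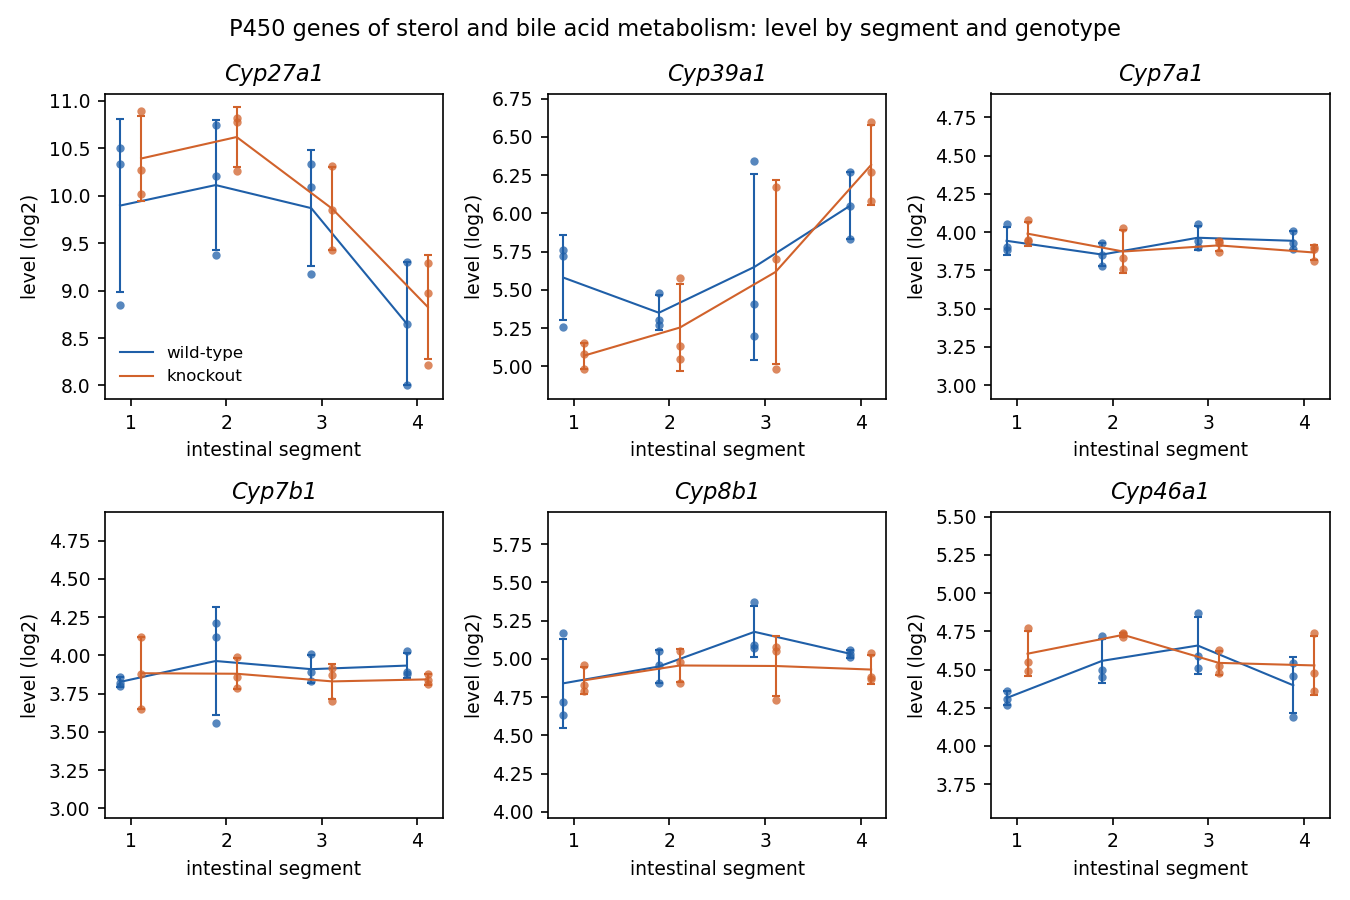
Level (log2) of 6 P450 genes of sterol and bile acid metabolism against the intestinal segment, drawn as points (arrays), lines (group means) and bars (SD, n = 3), wild-type in blue and knockout in orange. Cyp27a1 is lower and Cyp39a1 higher in segment 4, and the group means of Cyp7a1, Cyp7b1, Cyp8b1 and Cyp46a1 each span at most 0.41. Axes differ between panels and span at least 2 log2 units.

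Between the genotypes, 0 P450 genes passed the test in any segment, in the mean of the 4 segments or in the interaction (limma, adjusted p under 0.05). The share of all genes called was 0.111% in segment 1, 0.0721% in segment 2, 0.0262% in segment 3, 0.0655% in segment 4 and 0.0262% in the mean. Split by direction, the knockout was higher for 0.0328%, 0.0393%, 0.0131%, 0.0262% and 0.0131% of all genes and lower for 0.0786%, 0.0328%, 0.0131%, 0.0393% and 0.0131%. At an unadjusted p under 0.05 stood 6, 3, 3 and 1 P450 genes in segments 1 to 4 and 1 in the mean, where all genes numbered 1740, 1040, 1243, 748 and 1190. With limma's array weights, 1 P450 gene was called in segment 1 and 2 in the mean, where 2.29% and 4.63% of all genes were called. The difference was above 0 for 49 of 65 genes in segment 1 and 53 in segment 2, then for 21 in segment 3 and 27 in segment 4. These shares were 75.4%, 81.5%, 32.3% and 41.5%, against 52.1%, 51.8%, 43.8% and 48.7% of all genes. The median differences of the 65 were 0.11, 0.09, -0.05 and -0.02, against 0.01, 0.007, -0.02 and -0.003 for all genes. In segment 1 the positive side held 25 of 30 in family Cyp2, 5 of 5 in Cyp3, 8 of 12 in Cyp4, 11 of 15 in other families and 0 of 3 in Cyp1.

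**Figure D4:**
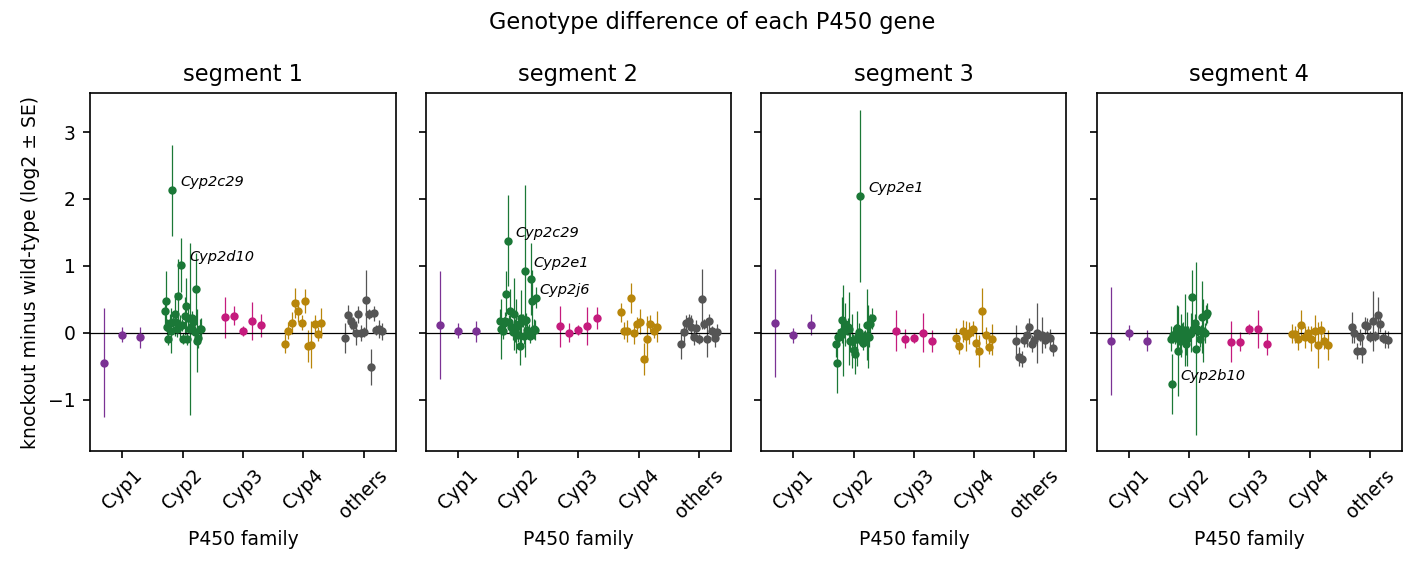
Knockout minus wild-type difference (log2, bars are the SE of the fit) of each P450 gene, by family, in the 4 segments. Most genes lie near 0, and the genes beyond 0.75 are named, led by Cyp2c29 in segment 1 (2.13) and Cyp2e1 in segment 3 (2.04).

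Cyp2c29 had the largest differences in segments 1 and 2. With the array values given above, the genotypes overlapped in segment 1, where the highest wild-type array, at 11.09, lay above the lowest knockout array, at 10.67, and were apart in segment 2. The difference was 2.13 in segment 1 (SE 0.68, adjusted p = 0.261), 1.38 in segment 2 (SE 0.68, adjusted p = 0.745) and -0.27 in segment 4 (adjusted p = 1.00). The value in segment 1 rested on single arrays: it was 0.95 without wild-type replicate 1 and 3.13 without wild-type replicate 3, the latter with an adjusted p of 0.0343. Wild-type segment 1 replicate 1 had the highest mean of pancreas markers of all arrays, 9, against 6.12 and 5.86 in replicates 2 and 3. The part of pancreas in the difference was not tested. Over the mean of 4 segments the difference of Cyp2c29 was 0.82 (SE 0.36, adjusted p = 0.653), and 0.39 without wild-type replicate 1.

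The other large differences in segment 1 were those of Cyp2d10 and Cyp2j6. Cyp2d10 read 4.34, 4.97 and 5.71 in the wild-type and 5.13, 7.49 and 5.42 in the knockout. The difference of 1.01 (SE 0.40, adjusted p = 0.358) came down to 0.27 without knockout replicate 2, and the fall of 1.87 along the knockout segments to -1.14. Cyp2j6, a fatty acid epoxygenase, read 7.91, 10.22 and 10.45 against 10.74, 9.92 and 9.89, a difference of 0.66 (SE 0.53). It was -0.15 without wild-type replicate 1, the array with the high pancreas markers. Wild-type replicate 1 was the lowest of its group in all 4 segments for 8 P450 genes (Cyp27a1, Cyp2c70, Cyp2d26, Cyp2j6, Cyp3a11, Cyp3a13, Cyp3a25 and Cyp4v3), 12.3% of them against 6.77% of all genes. Its part in the genotype differences was not tested beyond the values without it.

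Arrays of the genotypes did not overlap, with the knockout higher, for 6 P450 genes in segment 1 (8.02% of all genes), 5 in segment 2 (5.74%), 0 in segment 3 (3.97%) and 2 in segment 4 (5.82%). With the knockout lower they did not overlap for 1 in segment 1 (8.67%), 0 in segment 2 (3.76%), 5 in segment 3 (6.89%) and 2 in segment 4 (4.88%). Cyp4b1 was the gene apart in both segments 1 and 2, with 10.8, 10.67 and 10.78 in the wild-type and 11.23, 11.27 and 11.31 in the knockout in segment 2 (difference 0.52, SE 0.23, adjusted p = 0.68). Cyp4f41-ps was apart in both segments 3 and 4, lower in the knockout (-0.21 and -0.13, SE 0.11), and did not pass the test in either. Of the steroid synthesis genes, Cyp11b1 and Cyp11b2 were lower in the knockout in segment 3, by -0.36 and -0.39 (SE 0.14 and 0.12, adjusted p = 0.575 and 0.473), at levels from 3.99 to 5.05. In segment 4 the largest negative difference was that of Cyp2b10, at -0.77 (SE 0.45, adjusted p = 1.00). Leaving out wild-type replicate 3 brought it to -0.02.

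Cyp2e1, which oxidises ethanol and is high in fat and liver, was far above the rest in 4 single arrays. Its wild-type arrays read 4.75, 4.44 and 4.83 in segment 1, 4.58, 5.1 and 9.38 in segment 2, 4.85, 5.11 and 4.92 in segment 3, and 5.94, 6.86 and 5.83 in segment 4. Its knockout arrays read 4.61, 4.59 and 4.99, then 7.79, 5.55 and 8.49, then 4.48, 5.25 and 11.28, and last 5.37, 5.74 and 6.8. All arrays of segment 4 lay above all arrays of segment 1, and the differences of 1.54 in the wild-type and 1.24 in the knockout did not pass the test. The 4 arrays above 7 were also the 4 highest in the mean of the 5 measured fat markers, at 8.63 in wild-type segment 2 replicate 3, 7.73 and 7.84 in knockout segment 2 replicates 1 and 3, and 9.93 in knockout segment 3 replicate 3. The other 20 arrays had fat markers at 5.63 to 6.98. Adipoq, a defining fat marker, ranged from 4.05 to 12.11, and the liver marker Alb from 5.04 to 6.08. The genotype difference of Cyp2e1 in segment 3, 2.04 (SE 1.29, adjusted p = 0.668), was -0.10 without knockout replicate 3. The part of fat in its level was not tested beyond these values.

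**Figure D5:**
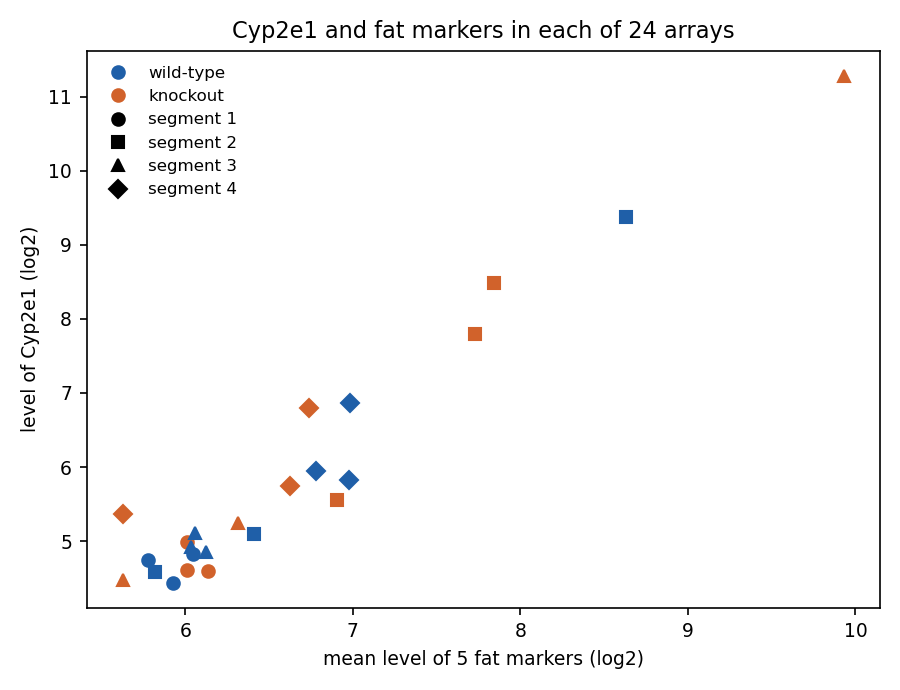
Level of Cyp2e1 (log2, vertical) against the mean level of 5 fat markers (log2, horizontal) in each of the 24 arrays. Colour gives the genotype and shape the segment. The 4 arrays with Cyp2e1 above 7 are those with the highest fat markers, up to 11.28 and 9.93 in 1 knockout array of segment 3.

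Cyp4f18, which inactivates leukotriene B4 in neutrophils, was likewise high in knockout segment 3 replicate 3. There it read 6.71, against 5.24 and 4.84 in the other knockout arrays of the segment. The mean of 6 leukocyte markers was 9.47 in that array and 7.7 and 7.62 in the others. Its genotype difference of 0.32 in segment 3 (SE 0.35, adjusted p = 0.802) was -0.24 without that array.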

How the data were processed

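Total RNA of scraped intestine was biotinylated and hybridised to one-colour arrays. The values the authors deposited were read as log2 expression, since the submitters' processing notes name RMA and RMA returns log base 2. The base itself is not stated. Its version and the genome build of the probe design are not given in the sources used here. The method corrects background, quantile-normalizes the arrays and compresses low values. Of 16556 probe sets, 15270 named 1 gene, 64 were controls and 1222 had no name here. Where several probe sets named a gene, that of higher mean level was used, leaving 15267 genes, without a filter. All 24 columns matched a sample.

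Groups were compared in R 4.3.3 through limma 3.58.1 (linear model of 8 group means over 24 arrays with eBayes, 16 residual degrees of freedom, prior 3.35), with Benjamini-Hochberg adjustment over all genes and calls at 0.05. The mean of 4 segments was tested on means per replicate number, 3 against 3, which assumes that a number marks 1 mouse. The labels do not state this. Deviations of same-numbered arrays correlated at -0.286 to 0.521 between segments (median 0.061) and -0.242 to 0.293 between genotypes (median -0.124). Medians for different numbers were -0.0702 and 0.0592. Wild-type replicate 1 was lowest of its group in all 4 segments for 6.77% of all genes and highest for 9.09%. For the other numbers these shares were 0.485% to 2.96%. No other main test took numbers to pair samples. In the tests along the segments and of the interaction, dependence between arrays of one number was modelled only in the replicate block. For the mean of 4 segments, the average of 4 contrasts in the fit of all arrays does not assume that a number marks 1 mouse. The steps were tested on simulated data.

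The P450 genes, lists and alternatives were chosen with earlier results of these data known. The rule named the 5 widest-ranging genes of each family, the 3 largest rises and falls of each genotype comparison and 21 planned genes, of which 20 were measured (Cyp2c65 is not analysed here). This gave 37 genes. The other 6 (Cyp2a12, Cyp2b9, Cyp2c37, Cyp2j9, Cyp2s1 and Cyp4a31), Cyp4f41-ps, the genes named only inside a count, an annotation or a promoter match, and the promoter motifs were chosen after values were seen. Probe sequences were not used, so signal shared between near-identical Cyp2 and Cyp3 copies remains possible. The alternatives included centring arrays on their median, a further quantile normalization, filters at 5 and 6, averaging probe sets, trend and robust eBayes, array weights, a replicate block, fits on 1 segment or genotype, each array left out, and, added after seeing the data, leaving out 6 arrays with raised pancreas, fat or smooth muscle markers.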

Additional observations from a re-analysis of the deposited data

How the results depend on the processing

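All falls and rises called between segments 4 and 1 kept their direction under every alternative run, and the calls that were lost, those of 4 genes in the wild-type and 8 in the knockout, are named with the results. The genotype tests called 0 P450 genes under the alternatives run, apart from the calls that follow. Limma's array weights called 1 in segment 1 (Cyp27b1, 0.33, adjusted p = 0.0149, where 2.29% of all genes were called). They called 2 in the mean of 4 segments (Cyp2u1 and Cyp46a1, 0.29 and 0.17, adjusted p = 0.046 and 0.0442, where 4.63% were). In segment 1 without wild-type replicate 3, 1 (Cyp2c29) was called, where 0.19% of all genes were. For the mean of 4 segments, the average of 4 contrasts in the fit of all arrays, which treats the 4 segments as separate samples, called 223 of all genes in place of 4, and 0 P450 genes. Array weights raised the count along the wild-type segments from 16 to 25, and that of all genes to 39.6%. The cause was not tested. With each array left out, counts ranged from 12 to 20 along the wild-type segments, 20 to 24 along the knockout segments, 11 to 19 and 20 to 24 between segments 4 and 1 of the wild-type and the knockout, 0 to 1 between genotypes in segment 1 and 0 to 0 in the other genotype comparisons; for the mean of 4 segments the 4 arrays of a number were left out together. With the replicate block, 20 and 23 genes were called along the wild-type and knockout segments and 17 and 25 between their ends, and 0 between genotypes or in the interaction; it moved no count by over 1.5 times. Over all genes the block called 26% and 31.1% along the segments and 25.7% and 32.6% between the ends. With 1 array left out, 16.8% to 25.3% and 22.8% to 29.2% of all genes were called along the segments. Between the ends these shares were 16.8% to 22.9% and 24.4% to 28.1%. A filter at a mean of at least 5 left 33 of the 65 genes. A filter at 6 or above in every array of any 1 group left 22. Calls between the ends then numbered 15 of 33 and 13 of 22 in the wild-type and 19 of 33 and 17 of 22 in the knockout. Of all genes these filters kept, lower shares were called, 33.1% and 41.2% in the wild-type and 40.4% and 49.2% in the knockout. A gene high in only 1 segment passes the filter at 6 through that segment, so no conclusion is drawn from its counts. Low levels limit what 27 genes with means under 5 can show.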
